A study of Mus musculus with 6 samples.

Results

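The genes described here are 10 amino acid transporter genes of hepatocytes: Slc7a1, Slc7a2, Slc7a5, Slc38a2, Slc38a3, Slc38a4, Slc1a2, Slc3a1, Slc3a2 and Slc43a1. They were chosen by symbol, without reference to a threshold but with earlier results of these data known. All 10 were found among the 12366 genes of the deposited table. RNA was sequenced from livers of male C57BL/6 mice that lacked Acss2 (Acss2-/-, called Acss2-KO here) and of wild type (WT) males, with 3 libraries of each genotype. Both genotypes were on a chow diet, were 22 weeks old and had fasted for 48 h, so that every value below describes the fasted state and no fed liver was measured. Acss2 makes acetyl-CoA from acetate in the cytosol and nucleus. The labels do not say how the allele was made or in which cells Acss2 was deleted, and they do not tie libraries to animals, so p-values measure the spread between libraries, which may be technical in part. Values are reads per 1000000 reads (CPM). Sequencing depth, estimated from the spacing of the lowest values, was 28.6, 25.6 and 21.8 M reads in Acss2-KO replicates 1 to 3 and 28.8, 30.8 and 23.3 M reads in WT replicates 1 to 3, so that 5 CPM stood for 109 to 154 reads.

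Hepatocytes take up amino acids from portal blood through carriers that differ in cargo and in the ions they move. Sodium-coupled carriers (the SNAT proteins encoded by Slc38 genes, and the glutamate carrier encoded by Slc1a2) can build up amino acids against a gradient, whereas most Slc7 and Slc43 carriers exchange or equilibrate them. Some Slc7 carriers reach the cell surface only when bound to a heavy chain made by Slc3a1 or Slc3a2. In a fast, alanine, glutamine and other amino acids released by muscle are a carbon source for hepatic glucose production, and their nitrogen leaves the liver as urea and glutamine.

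Of the 10 transporter genes, Slc43a1 and Slc3a2 rose in Acss2-KO liver, Slc1a2 and Slc3a1 fell, and the abundant carriers Slc38a3, Slc38a4, Slc7a2 and Slc38a2 did not pass the test. Slc7a1 and Slc7a5 had means below 5 CPM, the minimum for the test, and are described by their values. The test was limma's moderated test on log2(CPM + 1), fitted over 9355 genes, with p-values adjusted by the Benjamini-Hochberg method and called under 0.05. The count of 4 of 8 tested members has to be read against the background: 36.5% of all tested genes passed, 13.4% higher and 23.1% lower in Acss2-KO. The median log2 fold change of the 8 tested members was 0.15, against -0.12 for all tested genes, whose 10th to 90th percentiles ran from -1.08 to 0.76. The genotypes did not overlap for 6 of the 10 members (4 higher and 2 lower in Acss2-KO), where 52.2% of all listed genes did not overlap. Of tested genes alone, 52.9% did not overlap, 20.1% higher and 32.8% lower in Acss2-KO. These shares are near the background, and the members are therefore described one by one. In bulk liver RNA, fewer cells of a type and less RNA per cell cannot be told apart for any of them.

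**Figure D1:**
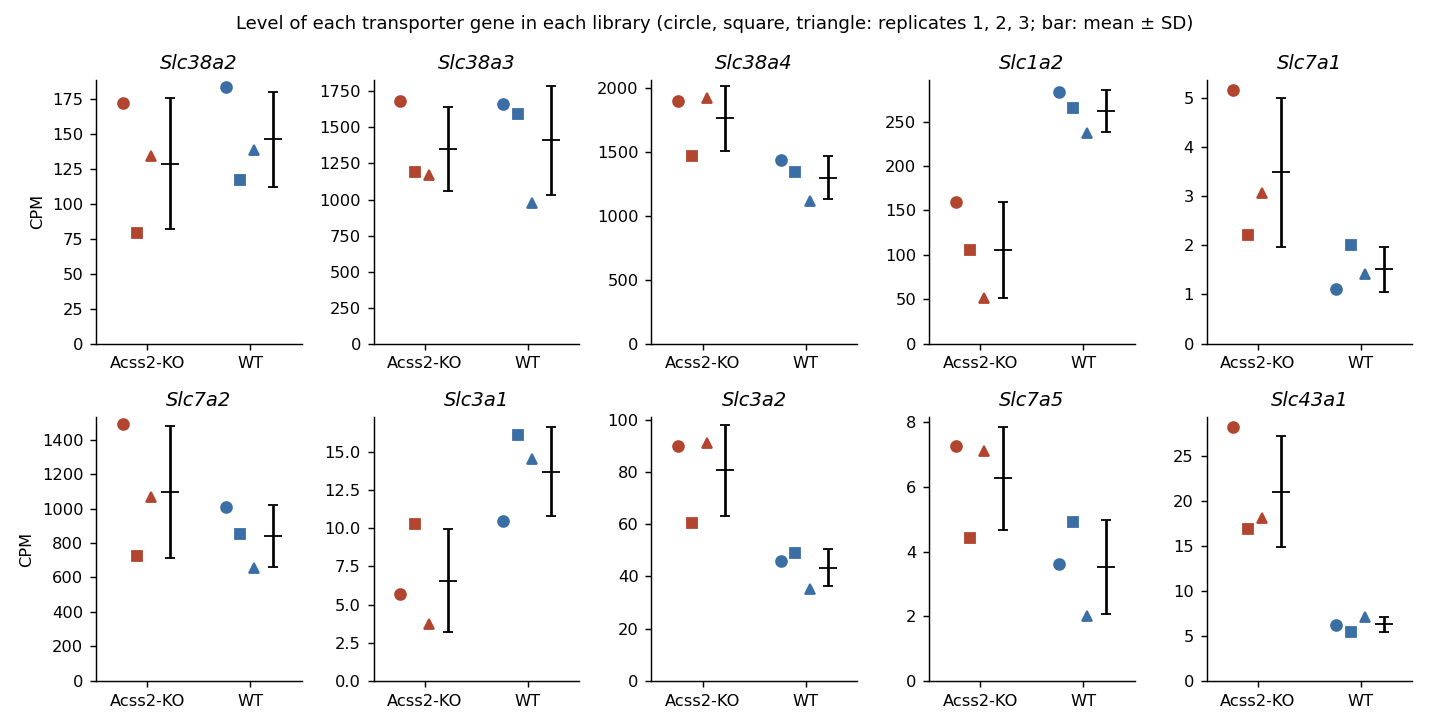
Each panel shows 1 transporter gene, with CPM on the y axis (from 0) and the Acss2-KO and WT libraries along the x axis; circles, squares and triangles are replicates 1, 2 and 3, and the bars are mean ± SD (n = 3 libraries of each genotype). Slc43a1 and Slc3a2 lay higher in every Acss2-KO library than in any WT library, Slc1a2 and Slc3a1 lay lower, and the Slc38a3 points of the genotypes overlapped.

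The promoter windows of the 4 genes that passed the test are printed because these members moved in opposite directions. They come from RefSeq (GRCm38.p6) and run from 250 bases before to 50 bases after an annotated start site, 5′ to 3′ on the gene's strand, 300 bases each. Capitals mark CTTTGA or its reverse complement TCAAAG, the core bound by the TCF/LEF factors of the Wnt pathway, and CACGTG, the palindromic E-box of basic helix-loop-helix factors. The Slc43a1 window lies at chr2:84840073-84840372 on the plus strand, the Slc3a2 window at chr19:8713848-8714147 on the minus strand, the Slc1a2 window at chr2:102706188-102706487 on the plus strand and the Slc3a1 window at chr17:85028097-85028396 on the plus strand. The start sites of the Slc43a1, Slc3a2 and Slc1a2 windows lie inside the deposited gene spans, downstream of their outer ends. The Slc1a2 window begins at 102706188, whereas its gene span begins at 102658659. On the minus strand, the Slc3a2 window ends at 8714147 and its gene span at 8723369. Which start sites are used in these livers was not tested.
Slc43a1: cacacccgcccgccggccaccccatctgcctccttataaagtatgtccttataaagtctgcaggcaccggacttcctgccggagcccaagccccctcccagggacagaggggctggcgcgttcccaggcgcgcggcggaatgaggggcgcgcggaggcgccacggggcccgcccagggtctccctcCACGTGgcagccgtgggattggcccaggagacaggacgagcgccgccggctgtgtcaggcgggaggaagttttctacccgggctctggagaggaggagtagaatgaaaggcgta
Slc3a2: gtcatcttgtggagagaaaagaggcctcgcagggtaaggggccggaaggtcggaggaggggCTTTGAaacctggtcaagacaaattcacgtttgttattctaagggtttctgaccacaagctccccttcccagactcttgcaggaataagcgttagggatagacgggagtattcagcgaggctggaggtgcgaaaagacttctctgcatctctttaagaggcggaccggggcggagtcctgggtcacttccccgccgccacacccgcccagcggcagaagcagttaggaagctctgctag
Slc1a2: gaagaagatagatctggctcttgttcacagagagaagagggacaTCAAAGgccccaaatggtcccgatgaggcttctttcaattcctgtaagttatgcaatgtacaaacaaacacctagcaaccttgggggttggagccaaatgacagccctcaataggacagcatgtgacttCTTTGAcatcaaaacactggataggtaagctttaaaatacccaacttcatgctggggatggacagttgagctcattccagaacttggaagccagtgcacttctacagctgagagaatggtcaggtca
Slc3a1: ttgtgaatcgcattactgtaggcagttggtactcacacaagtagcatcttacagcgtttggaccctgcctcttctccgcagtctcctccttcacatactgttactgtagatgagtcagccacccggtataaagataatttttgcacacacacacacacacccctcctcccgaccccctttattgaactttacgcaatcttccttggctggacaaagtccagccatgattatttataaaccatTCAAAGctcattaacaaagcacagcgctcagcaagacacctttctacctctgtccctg
The E-box of Slc43a1 began at -64 relative to the start site. The TCF core began at -189 in Slc3a2, at -206 and -77 in Slc1a2 and at -8 in Slc3a1, so it was found in windows of genes that rose and of genes that fell. Counting alternative start sites, 10 windows were matched for 7 members, and no entry was found for Slc7a2, Slc7a5 and Slc38a3. The TCF core was in 4 of these 10 windows, against 16.0% of 32851 mouse windows of the same length, and the E-box was in 1, against 7.15%. The amino acid response motif TGATGNAA, searched on both strands like the others, was in none of the 10, against 3.97% of all windows. At so low a share, finding none in 10 windows is not informative, and sequence outside the windows was not searched. No searched motif overlapped another in the members' windows, and a match of letters is not a measured binding site.

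Slc43a1 encodes LAT3, a sodium-independent carrier of leucine, isoleucine, valine, phenylalanine and methionine that needs no heavy chain (chromosome 2, 84838850 to 84863594). Its level was 28.2, 16.9 and 18.1 CPM in Acss2-KO replicates 1 to 3, against 6.23, 5.46 and 7.16 CPM in WT replicates 1 to 3. The lowest Acss2-KO library was more than 2-fold above the highest WT library, and Acss2-KO replicate 1 stood above the other Acss2-KO libraries. Means were 21.1 ± 6.22 CPM in Acss2-KO and 6.29 ± 0.849 CPM in WT (SD, n = 3 each). Slc43a1 rose 2.97-fold in Acss2-KO (log2 fold change 1.57, SE 0.22, 95% interval 1.08 to 2.07, limma adjusted p = 0.0016). The call held with each library left out in turn, with adjusted p between 0.00070 and 0.014.

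Slc43a1 is also known as a gene of the exocrine pancreas, and pancreatic transcripts were present in these libraries at unequal levels. The summed level of Cela1, Cela2a, Prss2, Ctrb1, Pnlip and Cpa1 was 1305, 22.3 and 527 CPM in Acss2-KO replicates 1 to 3, against 38.6, 5607 and 288 CPM in WT replicates 1 to 3. Within Acss2-KO, the order of the Slc43a1 levels was that of the pancreatic sums (replicate 1, then 3, then 2), whereas WT replicate 2, with the highest sum of all 6 libraries, had the lowest Slc43a1 level. Between the libraries with the lowest pancreatic sum of each genotype, Acss2-KO replicate 2 and WT replicate 1, the log2 difference in Slc43a1 was 1.31, a value of single libraries chosen after seeing the data. The part of pancreatic RNA in the Slc43a1 values was not tested.

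Slc7a5 encodes LAT1, the light chain that carries large neutral amino acids once it is bound to the heavy chain 4F2hc (chromosome 8, 121881150 to 121907694). It was measured at 7.26, 4.41 and 7.11 CPM in Acss2-KO liver, against 3.605, 4.92 and 2.01 CPM in WT liver, and the genotypes overlapped because Acss2-KO replicate 2 lay below WT replicate 2. Means were 6.26 ± 1.61 CPM in Acss2-KO and 3.51 ± 1.46 CPM in WT (SD, n = 3 each). Acss2-KO replicate 1 and WT replicate 2 were the highest Slc7a5 libraries of their genotypes and also had the highest pancreatic sums. The part of pancreatic RNA in the Slc7a5 values was not tested. The mean over all libraries, 4.89 CPM, lay just under the 5 CPM minimum. The log2 difference was 0.71, and in a fit without the minimum the limma adjusted p was 0.076. In the authors' deposited table the log2 fold change of Slc7a5 is 0.98 with an adjusted p of 0.037.

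Slc3a2 encodes 4F2hc (CD98), the heavy chain that brings LAT1 and several other Slc7 carriers to the plasma membrane (chromosome 19, 8706882 to 8723369). Its level was 89.9, 60.5 and 91.1 CPM in Acss2-KO replicates 1 to 3, against 45.9, 48.8 and 35.3 CPM in WT replicates 1 to 3. All 3 Acss2-KO libraries lay above all 3 WT libraries, and Acss2-KO replicate 2 was the nearest to WT. Slc3a2 averaged 80.5 ± 17.3 CPM in Acss2-KO and 43.3 ± 7.14 CPM in WT (SD, n = 3 each), a 1.83-fold rise (log2 fold change 0.87, SE 0.22, limma adjusted p = 0.015). The call was lost without Acss2-KO replicate 3 (adjusted p = 0.069), and between Acss2-KO replicate 2 and WT replicate 1 the log2 difference was 0.39.

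Slc3a1 encodes rBAT, the heavy chain of the cystine and dibasic amino acid exchanger, best known from kidney and intestine (chromosome 17, 85028347 to 85064243). It was measured at 5.696, 10.3 and 3.71 CPM in Acss2-KO replicates 1 to 3, against 10.5, 16.1 and 14.5 CPM in WT replicates 1 to 3. The genotypes did not overlap, but Acss2-KO replicate 2 and WT replicate 1 were nearly equal. Means were 6.56 ± 3.36 CPM in Acss2-KO and 13.7 ± 2.901 CPM in WT (SD, n = 3 each), 2.05-fold lower in Acss2-KO (log2 fold change -1.03, SE 0.31, limma adjusted p = 0.030). This was the least stable call of the 4, since adjusted p was 0.070 without Acss2-KO replicate 1, 0.11 without Acss2-KO replicate 3, 0.092 without WT replicate 2, 0.11 without WT replicate 3, 0.16 without both Acss2-KO replicate 1 and WT replicate 2, and between 0.056 and 0.075 with the other scalings tried. In the authors' deposited table the adjusted p of Slc3a1 is 0.053.

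Reads of Slc3a1 cannot all be assigned to it. Its exons share 608 of 2307 bases with exons of Prepl, a peptidase-like gene on the opposite strand, and the library kit does not mark strand. Prepl, named for this overlap, was at 12.6, 17.9 and 16.7 CPM in Acss2-KO liver, against 23.6, 24.9 and 19.97 CPM in WT liver. Prepl was thus lower in every Acss2-KO library than in any WT library as well, with a log2 fold change of -0.52 and a limma adjusted p of 0.054, and its part in the Slc3a1 value was not tested. The light chain partner of rBAT, Slc7a9, was not found by symbol in the deposited table. In the other 9 members, no more than 4.76% of the 36-base words of the transcripts were found in transcripts of another gene. Antisense noncoding genes share 635 exon bases with Slc7a2 (Gm17475) and 189 with Slc1a2 (Gm13872), and their reads cannot be told apart there either.

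Slc1a2 encodes GLT-1, the sodium-coupled glutamate carrier that in liver is found in hepatocytes around the central vein (chromosome 2, 102658659 to 102790784). Its level was 159.8, 105 and 51.6 CPM in Acss2-KO replicates 1 to 3, against 284, 265 and 237 CPM in WT replicates 1 to 3. Every Acss2-KO library lay below every WT library. The Acss2-KO libraries also spread widely, with a coefficient of variation of 51.2%, against 8.99% in WT, where the median over all tested genes was 15.9% in Acss2-KO and 15.2% in WT. Slc1a2 averaged 106 ± 54.1 CPM in Acss2-KO and 262 ± 23.6 CPM in WT (SD, n = 3 each), 2.72-fold lower in Acss2-KO (log2 fold change -1.44, SE 0.36, 95% interval -2.26 to -0.62, limma adjusted p = 0.016). The call was lost when any 1 WT library was left out (adjusted p = 0.052 to 0.054), and the log2 difference between Acss2-KO replicate 2 and WT replicate 1 was -1.42. Slc1a2 lies on the chromosome that carries Acss2, 52.7 Mb away, and Slc43a1, which rose, lies on the same chromosome 70.7 Mb away from Acss2.

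Slc1a2 shares its place in the lobule with Glul, glutamine synthetase, which makes glutamine from glutamate and ammonia. Glul was at 744, 413 and 347 CPM in Acss2-KO liver, against 1201, 1448 and 873 CPM in WT liver, without overlap. It fell 2.42-fold (log2 fold change -1.27, SE 0.32, limma adjusted p = 0.015), a call lost without Acss2-KO replicate 3 (0.069) or WT replicate 2 (0.051). Among 14 tested pericentral marker genes, Glul included and Slc1a2 not, 10 fell and none rose, with a median log2 fold change of -1.28. Of all tested genes, 23.1% fell and 13.4% rose. The summed level of all 17 pericentral markers listed was 7436 to 11263 CPM in Acss2-KO liver, against 15487 to 21114 CPM in WT liver. Most of this sum was Cyp2e1, at 5043 to 8719 CPM in Acss2-KO, against 10661 to 15076 CPM in WT. Among 16 tested periportal markers, 8 rose and 2 fell, with a median log2 fold change of 0.67.

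**Figure D2:**
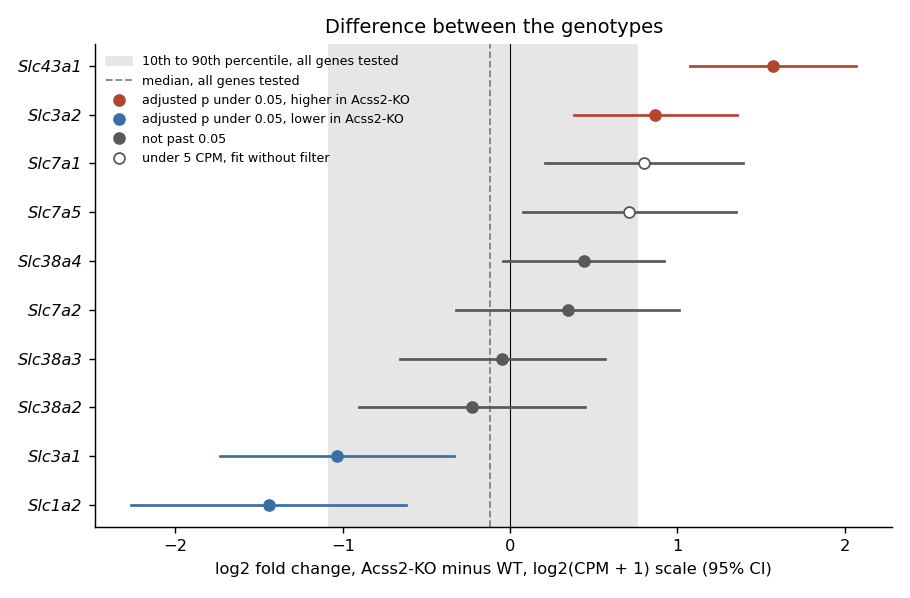
Log2 fold changes of the 10 transporter genes (x axis, Acss2-KO minus WT on the log2(CPM + 1) scale) with 95% intervals; filled red and blue points passed the test in the higher and lower direction, grey points did not, and open points are the genes under 5 CPM, fitted without the minimum. The shaded band spans the 10th to 90th percentile of all tested genes, -1.08 to 0.76: Slc43a1, Slc3a2 and the low-level gene Slc7a1 (0.80) lie above it, Slc1a2 below it, and Slc3a1 just inside it at -1.03.

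Slc38a4 encodes SNAT4, a sodium-coupled carrier of alanine and other small neutral amino acids that is highly expressed in liver (chromosome 15, 96994823 to 97055956). Its level was 1898, 1468 and 1924 CPM in Acss2-KO replicates 1 to 3, against 1438, 1342 and 1113 CPM in WT replicates 1 to 3. The genotypes did not overlap, but Acss2-KO replicate 2 exceeded WT replicate 1 only slightly. Means were 1763 ± 256 CPM in Acss2-KO and 1298 ± 167 CPM in WT (SD, n = 3 each). The log2 fold change of 0.44 (SE 0.21, 95% interval -0.04 to 0.92) did not pass the test (limma adjusted p = 0.13). A change of this size was thus not separated from the spread between libraries. This result was near the threshold with some scalings. Median-of-ratios, trimmed-mean and upper-quartile scaling gave 0.57, 0.58 and 0.53 (limma adjusted p = 0.053, 0.051 and 0.061). The limma adjusted p was 0.11 with quantile scaling and 0.072 to 0.35 with 1 library left out.

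Slc38a3 encodes SNAT3, the sodium-coupled glutamine, histidine and asparagine carrier of hepatocytes, which can run in either direction (chromosome 9, 107650634 to 107669530). It was measured at 1687, 1193 and 1168 CPM in Acss2-KO replicates 1 to 3, against 1663, 1596 and 976 CPM in WT replicates 1 to 3. Replicate 1 was the highest library in both genotypes, WT replicate 3 was the lowest of all 6, and the genotypes overlapped. The log2 fold change was -0.047 (SE 0.27, limma adjusted p = 0.91), and its 95% interval allows a level between 0.634-fold and 1.48-fold of WT. The sign of this value is not determined: it was positive with median-of-ratios, trimmed-mean and upper-quartile scaling and when Acss2-KO replicate 2, Acss2-KO replicate 3, WT replicate 1 or WT replicate 2 was left out.

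Slc38a2 encodes SNAT2, the sodium-coupled carrier of alanine and other small neutral amino acids whose gene is known to respond to amino acid shortage (chromosome 15, 96687394 to 96699698). Its level was 172, 79.3 and 134 CPM in Acss2-KO replicates 1 to 3, against 184, 117 and 138 CPM in WT replicates 1 to 3. Replicate 1 was the highest library in both genotypes and the genotypes overlapped. The log2 fold change was -0.23 (SE 0.30, 95% interval -0.90 to 0.45, limma adjusted p = 0.57), and it was 0.083 without Acss2-KO replicate 2, the library with the lowest value. Slc38a2 and Slc38a4 are neighbours on chromosome 15, 295 kb apart, and Slc38a1, a low-level paralog, lies 44.5 kb from Slc38a2.

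Slc7a2 encodes CAT2, the main carrier of arginine, lysine and ornithine in liver (chromosome 8, 40862396 to 40922308). Its level was 1489, 724 and 1067 CPM in Acss2-KO replicates 1 to 3, against 1009.9, 855 and 653 CPM in WT replicates 1 to 3. The genotypes overlapped, with Acss2-KO replicate 2 below 2 of the WT libraries. Means were 1093 ± 383 CPM in Acss2-KO and 839 ± 179 CPM in WT (SD, n = 3 each), with a log2 fold change of 0.34 that did not pass the test (SE 0.30, 95% interval -0.33 to 1.01, limma adjusted p = 0.38). Between Acss2-KO replicate 2 and WT replicate 1 the log2 difference was -0.48, the opposite direction.

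Slc7a1 encodes CAT1, the widely expressed carrier of the same cationic amino acids, which mouse liver expresses at a low level (chromosome 5, 148327410 to 148399904). It was measured at 5.17, 2.22 and 3.07 CPM in Acss2-KO replicates 1 to 3, against 1.11, 2.01 and 1.41 CPM in WT replicates 1 to 3. These values stood for about 148, 57 and 67 reads in Acss2-KO liver, against about 32, 62 and 33 reads in WT liver. The genotypes did not overlap, although Acss2-KO replicate 2 and WT replicate 2 were close. Within each genotype, the order of the Slc7a1 levels was that of the pancreatic sums given above. The part of pancreatic RNA in the Slc7a1 values was not tested. Means were 3.49 ± 1.52 CPM in Acss2-KO and 1.51 ± 0.4601 CPM in WT (SD, n = 3 each), a log2 difference of 0.80. In the fit without the 5 CPM minimum, in which 35.5% of 12366 genes passed (12.0% higher and 23.5% lower), the limma adjusted p was 0.042. It was 0.11 without Acss2-KO replicate 1, 0.097 without Acss2-KO replicate 3, 0.13 without WT replicate 1 and 0.12 without WT replicate 3. In the authors' deposited table the log2 fold change of Slc7a1 is 1.36 with an adjusted p of 0.004, and 5 members are past 0.05 there (4 higher, 1 lower), where 27.2% of all genes in that table are (12.5% positive and 14.7% negative).

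Divided by exon length, the members spanned about 3 orders of magnitude. In Acss2-KO liver the mean levels were 438 CPM per kb for Slc38a4, 399 for Slc38a3, 120 for Slc7a2, 27.8 for Slc38a2, 27.2 for Slc3a2, 8.03 for Slc1a2, 3.69 for Slc43a1, 2.84 for Slc3a1, 1.78 for Slc7a5 and 0.463 for Slc7a1. In WT liver the mean levels per kb were 417 for Slc38a3, 322 for Slc38a4, 91.9 for Slc7a2, 31.6 for Slc38a2, 19.9 for Slc1a2, 14.6 for Slc3a2, 5.94 for Slc3a1, 1.0997 for Slc43a1, 0.99986 for Slc7a5 and 0.201 for Slc7a1. The leading pair, Slc38a3 and Slc38a4, overlapped in both genotypes, so their order was not resolved. In Acss2-KO, Slc38a2 and Slc3a2 overlapped, as did each neighbouring pair from Slc1a2 down to Slc7a5, whereas in WT the only other overlapping neighbours were Slc43a1 and Slc7a5. Slc3a2 stood above Slc1a2 in Acss2-KO and below it in WT, without overlap in either genotype, and Slc43a1 stood above Slc3a1 only in the Acss2-KO means, where the libraries of both genes overlapped. Slc38a3, Slc38a4 and Slc7a2 together held 91.5%, 92.4% and 93.1% of the members' summed CPM in Acss2-KO replicates 1 to 3, against 88.5%, 89.2% and 86.3% in WT replicates 1 to 3. The 4 genes that passed the test were thus minor parts of the members' summed CPM, which was not divided by exon length and leaves out other carriers.

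**Figure D3:**
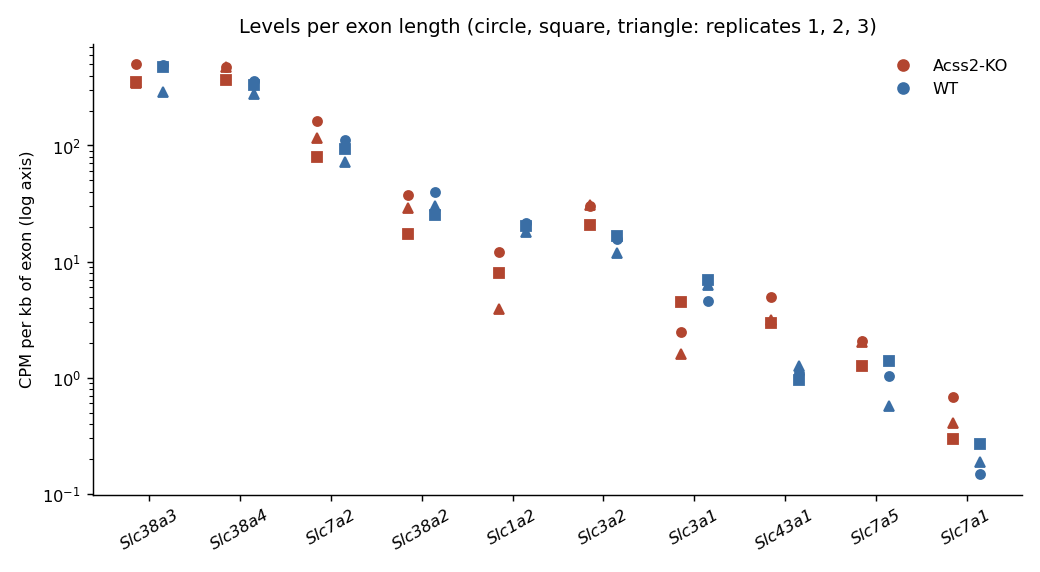
CPM per kb of exon (y axis, log scale) for each transporter gene in the Acss2-KO (red, left of each pair) and WT (blue) libraries; circles, squares and triangles are replicates 1, 2 and 3, and genes are ordered by their WT mean. Slc38a3, Slc38a4 and Slc7a2 lie between 71.4 and 498 CPM per kb in all 6 libraries, and Slc7a1 lies below 0.7.

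Ratios of members that work as partners or share cargo were taken within each library, where the scaling between libraries cancels. With 3 libraries against 3, the exact two-sided permutation test cannot go below p = 0.1, so none of these 4 ratios can pass 0.05. The log2 ratio of Slc7a5 to its heavy chain Slc3a2 was -3.63, -3.78 and -3.68 in Acss2-KO replicates 1 to 3, against -3.67, -3.31 and -4.13 in WT replicates 1 to 3. The means were -3.70 in both genotypes, and the interval of the difference of 0.0067 allows a shift of more than 1.5-fold either way (95% interval -0.66 to 0.68, exact permutation p = 1.0). The log2 ratio of the heavy chains Slc3a1 to Slc3a2 was -3.98, -2.56 and -4.62 in Acss2-KO liver, against -2.13, -1.60 and -1.28 in WT liver. The balance of the heavy chain transcripts was 4.14-fold lower in Acss2-KO, without overlap (difference -2.05, 95% interval -3.87 to -0.23, exact permutation p = 0.1, 0.2 adjusted over the 4 ratios). Reads shared with Prepl cannot be separated from those of Slc3a1, as given above, and their part in this ratio was not tested.

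The log2 ratio of the cationic carriers Slc7a2 to Slc7a1 was 8.17, 8.35 and 8.44 in Acss2-KO liver, against 9.83, 8.73 and 8.85 in the WT libraries. It was lower in every Acss2-KO library (difference -0.82, 95% interval -1.81 to 0.18, exact permutation p = 0.1, adjusted 0.2). The highest ratio, 9.83, was that of WT replicate 1, where Slc7a1 was at 1.11 CPM, near the lowest listed level of 1 CPM. Slc7a2 made up 99.65% to 99.71% of the summed CPM of this pair in Acss2-KO, against 99.77% to 99.89% in WT. The log2 ratio of Slc38a2 to Slc38a4 was -3.46, -4.21 and -3.84 in Acss2-KO liver, against -2.97, -3.52 and -3.01 in the WT libraries. Acss2-KO replicate 1 lay above WT replicate 2, so the genotypes overlapped (difference -0.67, 95% interval -1.45 to 0.11, exact permutation p = 0.2, adjusted 0.27).

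**Figure D4:**
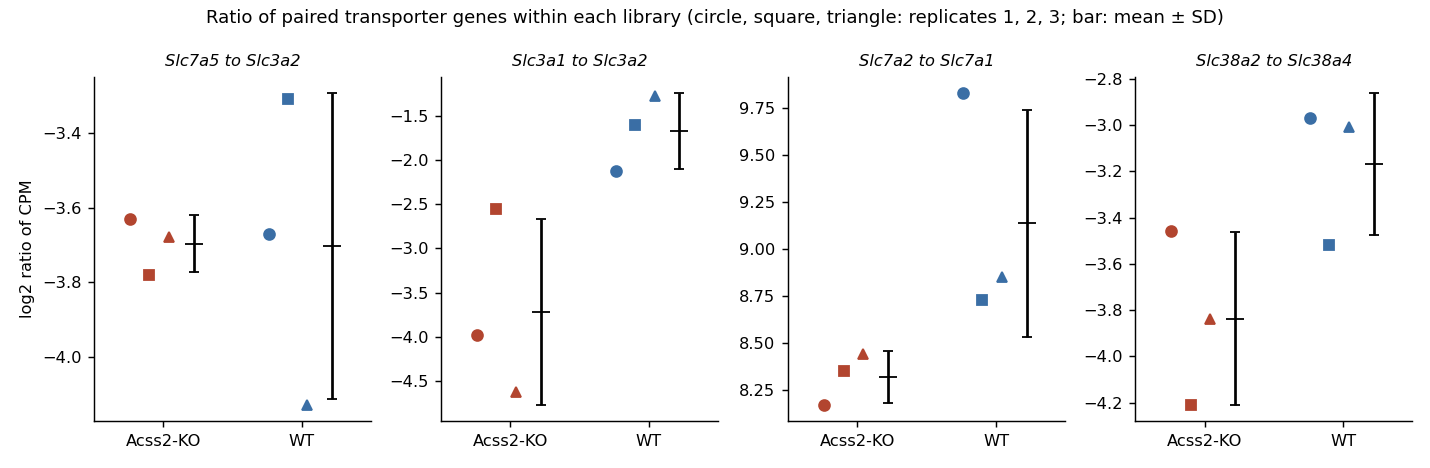
Log2 ratio of CPM within each library (y axis) for 4 pairs of transporter genes, with Acss2-KO left and WT right in each panel; circles, squares and triangles are replicates 1, 2 and 3, and bars are mean ± SD (n = 3 libraries of each genotype). The ratio of Slc7a5 to Slc3a2 has a mean of -3.70 in both genotypes, and the ratio of Slc3a1 to Slc3a2 lies at -2.56 or below in Acss2-KO and at -2.13 or above in WT.

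Of 35 other plasma membrane amino acid transporter genes, 12 were found by symbol in the deposited table and 7 reached 5 CPM. Among the 7, only 1 passed the test, where 36.5% of all tested genes passed. This was Slc36a1, a proton-coupled carrier of small amino acids also found on lysosomes. It was at 18.00, 20.97 and 18.00 CPM in Acss2-KO liver, against 45.6, 46.2 and 29.04 CPM in WT liver, and fell 2.03-fold without overlap (log2 fold change -1.02, SE 0.21, limma adjusted p = 0.0069). The more abundant genes of the list did not pass: Slc6a6, the taurine carrier, had a log2 fold change of -0.040, Slc16a10, an aromatic amino acid carrier, 0.18, and Slc6a9, a glycine carrier, 0.10 (limma adjusted p = 0.89, 0.46 and 0.87). Slc6a9 stood apart in Acss2-KO replicate 1, with 10.7, 33.6 and 36.5 CPM in Acss2-KO liver, against 24.3, 26.2 and 16.8 CPM in WT liver.

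Of 10 tested genes for lysosomal and intracellular amino acid carriers, 1 rose and 2 fell. Over all tested genes, 13.4% rose and 23.1% fell. Pqlc2, the lysosomal exporter of cationic amino acids, averaged 31.5 ± 3.31 CPM in Acss2-KO and 19.3 ± 1.88 CPM in WT (SD, n = 3 each; log2 fold change 0.68, SE 0.16, limma adjusted p = 0.013). Its call was lost without Acss2-KO replicate 3 or WT replicate 2 (adjusted p = 0.053 in each case) and without both Acss2-KO replicate 1 and WT replicate 2 (0.13). Slc38a6 (log2 fold change -0.57, limma adjusted p = 0.034) and Slc17a5, the sialic acid exporter of lysosomes (-0.52, 0.041), fell by the main test, and each call was lost in 11 of the alternatives tried.

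**Figure D5:**
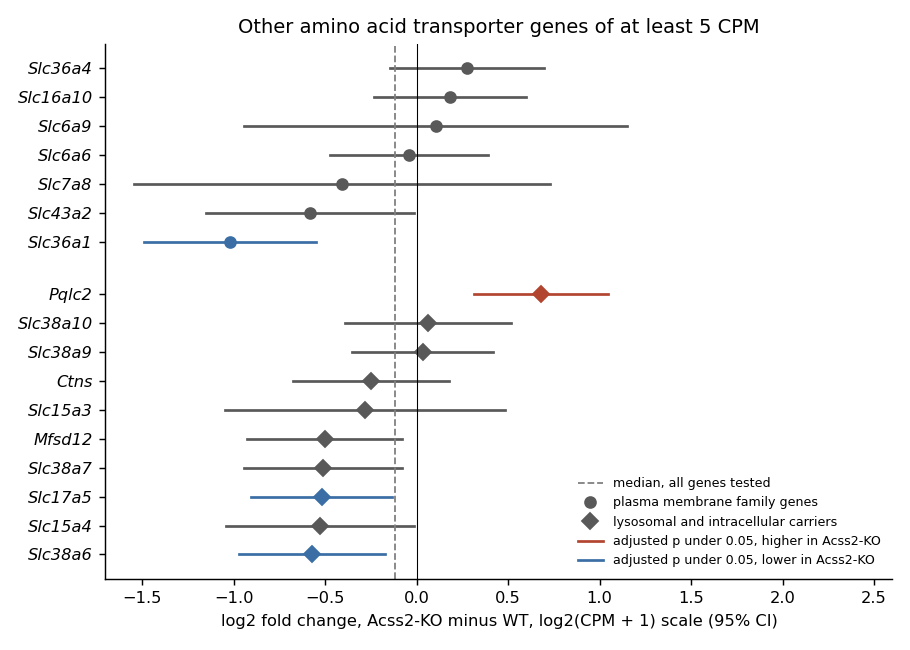
Log2 fold changes (x axis, Acss2-KO minus WT on the log2(CPM + 1) scale) with 95% intervals for 7 other plasma membrane amino acid transporter genes (circles) and 10 lysosomal or intracellular carriers (diamonds) of at least 5 CPM; the dashed line is the median of all tested genes, -0.12. Slc36a1, Slc38a6 and Slc17a5 are drawn as lower and Pqlc2 as higher in Acss2-KO, and the intervals of Slc6a9 and Slc7a8 are the widest.

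Of 7 tested genes for accessory proteins and ubiquitin ligases of amino acid carriers, 2 rose and 2 fell. The shares over all tested genes were 13.4% higher and 23.1% lower. Nedd4l, a ubiquitin ligase known to remove sodium-coupled carriers and channels from the membrane, was at 84.4, 63.1 and 79.9 CPM in Acss2-KO liver, against 38.9, 41.1 and 34.8 CPM in WT liver. It rose 1.95-fold without overlap (log2 fold change 0.96, SE 0.17, limma adjusted p = 0.0044). Rnf5, a membrane-anchored ubiquitin ligase known in human cells to act on glutamine carriers, was at 6.92, 14.7 and 9.71 CPM in Acss2-KO liver, against 24.8, 22.3 and 18.3 CPM in WT liver. It fell 2.05-fold (log2 fold change -1.04, SE 0.25, limma adjusted p = 0.014), a call lost without Acss2-KO replicate 3 (0.054).

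Slc3a2, Slc7a5, Slc7a1 and Slc38a2 are textbook targets of ATF4, the transcription factor of the amino acid response. Atf4 itself averaged 182 ± 39.1 CPM in Acss2-KO and 89.6 ± 8.997 CPM in WT (SD, n = 3 each), a 1.99-fold rise (log2 fold change 0.99, SE 0.21, limma adjusted p = 0.0079), with an adjusted p of 0.052 without Acss2-KO replicate 1 and WT replicate 2. Of 15 tested genes of the ATF4 list, Atf4 included and members not, 6 rose and 3 fell, with a median log2 fold change of 0.37. Of all tested genes, 13.4% rose and 23.1% fell. The 3 that fell were Cebpg (log2 fold change -1.16, limma adjusted p = 0.017), Trib3 (-0.62, 0.029) and Shmt2 (-0.97, 0.049). Asns, asparagine synthetase, was at 33.1, 21.3 and 25.1 CPM in Acss2-KO liver, against 3.23 and 2.27 CPM in WT replicates 2 and 3, and was listed at 0 in WT replicate 1 (limma adjusted p = 0.00032). Eif4ebp1, an inhibitor of cap-dependent translation, rose 2.14-fold (log2 fold change 1.098, SE 0.22, limma adjusted p = 0.0067). Of the 4 members named as targets, Slc3a2 rose, Slc7a1 and Slc7a5 had positive differences at low levels, and Slc38a2 had a log2 fold change of -0.23 that did not pass.

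Among 28 tested enzymes that use the carriers' cargo, 10 rose and 7 fell, where 13.4% of all tested genes rose and 23.1% fell. Asl, argininosuccinate lyase, averaged 2077 ± 466 CPM in Acss2-KO and 502 ± 85.4 CPM in WT (SD, n = 3 each; log2 fold change 2.04, SE 0.23, limma adjusted p = 0.00077). The genes with the smallest p besides Asl were Cps1, the entry enzyme of the urea cycle (log2 fold change 2.23, SE 0.21, limma adjusted p = 0.00039), along with Got1, the cytosolic aspartate aminotransferase (2.98, SE 0.44, 0.0024). Asl, Cps1 and Got1 all rose. The 7 that fell were Otc (log2 fold change -1.91, limma adjusted p = 0.022), Oat (-1.62, 0.0027), Glul, Glud1, Bckdk, Aldh4a1 and Prodh2. The main arginine carrier of the same cells, Slc7a2, did not pass the test, as given above. Of 9 tested genes for glutathione synthesis and cystine use, none rose and 2 fell. These were Chac2, which degrades glutathione and was listed at 0 in Acss2-KO replicates 1 and 3, with 1.72 CPM in Acss2-KO replicate 2, against 10.9, 12.4 and 18.00 CPM in WT liver, and Gclm, the modifier subunit of glutamate-cysteine ligase, with 103 ± 31.7 CPM in Acss2-KO and 203 ± 16.3 CPM in WT (SD, n = 3 each; log2 fold change -1.01, limma adjusted p = 0.014, and 0.090 without Acss2-KO replicate 1 and WT replicate 2).

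The libraries differed from each other in ways that touch these values. Acss2 was at 1.37, 3.56 and 2.35 CPM in Acss2-KO liver, against 74.03, 81.01 and 73.5 CPM in WT liver, so the labels match the deleted gene in all 6. Acss2-KO replicate 2 lay nearest to WT, with a correlation of 0.921 with the WT mean over genes, against 0.809 for Acss2-KO replicate 1 and 0.864 for Acss2-KO replicate 3, and Slc43a1, Slc3a2, Slc3a1, Slc7a1 and Slc7a5 were nearest to WT in that library too. Hepatocyte markers (9 tested) summed to 108596 to 118564 CPM in Acss2-KO and 98285 to 118087 CPM in WT. Most of this sum was Alb, at 74761 to 81811 CPM in Acss2-KO and 62432 to 81246 CPM in WT. Of the 9, only Ttr passed the test, and it fell (log2 fold change -1.80, limma adjusted p = 0.0015). Markers of Kupffer cells and leukocytes (12 of 15 listed) summed to 84.7 to 159 CPM in Acss2-KO, against 202 to 587 CPM in WT. Erythroid markers summed to 41.2 to 67.0 CPM in Acss2-KO, against 162 to 280.5 CPM in WT. They were 5 of 9 genes from a list of erythroid and platelet markers, and no platelet gene was among the 5. Of these lists, 5 of 9 tested leukocyte genes and 5 of 5 tested erythroid genes fell and none rose. Of all tested genes, 13.4% rose and 23.1% fell. The part of these cells in the values of the transporter genes was not tested. Of 14 tested endothelial and stellate markers 1 rose and 2 fell, of 3 cholangiocyte markers 1 rose and 1 fell, of 7 kidney, gut and pancreas genes 1 fell, and of 6 genes that mark RNA handling 1 rose and 2 fell.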

How the data were processed

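Liver RNA was sequenced in 3 Acss2-KO and 3 WT libraries made with a TruSeq kit, per the labels' protocols. Per library, the authors deposited log2 CPM with 2 decimals, and levels under 1 CPM appear as 0. The unit follows from the values, since the columns, taken off the log scale, add up to 997061 to 997856. A table of log2 fold changes with raw and adjusted p-values was deposited too, by a tool not named in the sources used here. The submitters' processing notes name Bowtie 0.12.2 and mm8, without a role. Gene positions are printed as deposited and follow GRCm38: the members' starts differ by -520 to 420 bases from those of RefSeq GRCm38.p6.

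For testing, values were converted back to CPM, a 0 counting as 1 CPM. The 9355 of 12366 genes whose mean reached 5 CPM were tested on log2(CPM + 1), a scale that understates the change of low genes, by limma 3.58.1 (R 4.3.3; robust and trended empirical Bayes through statmod 1.5.0; no covariate). Values with 2 decimals do not give back whole reads, so no count model was run. On simulated libraries, 40 of 46 genes changed 2-fold and 11 of 48 changed 1.5-fold were recovered among 9354 genes, with 4 false calls. The simulation gave all genes the same dispersion and changed few of them, unlike the real libraries, where several members spread more widely. These rates are therefore not the power or the false call rate for the members. Ratios were tested by exact permutation (scipy 1.17.1). Exon lengths, exon overlaps and shared 36-base words were taken from GENCODE vM1 on NCBIM37, whose coordinates are not printed. Errors are SD for levels and SE for log2 fold changes.

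The members and the 15 gene lists were chosen with earlier results of these data known. All 10 members are named. From the other lists, the 3 genes (transporters, lysosomal carriers, ATF4 targets, cargo enzymes) or 2 genes (other lists) with the smallest p past the threshold could be named, plus other plasma membrane transporters of at least 20 CPM. Not every such gene is named. Prepl, Glul, Slc38a1, Cyp2e1, Alb, the cargo enzymes and ATF4 targets that fell, and the transporters under 20 CPM were named after their values were seen. Alternatives were other pseudocounts, scalings and minimum levels, each library left out, and the replicate number as a block.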

Additional observations from a re-analysis of the deposited data

How the results depend on the processing

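The count of 4 members past the threshold was 2 with a minimum of 20 CPM, which leaves out Slc43a1 and Slc3a1, and 2 to 4 with 1 library left out (2 without Acss2-KO replicate 3, WT replicate 2 or WT replicate 3). The count over all genes, 3413, was 1853 with a minimum of 20 CPM, 1993 without Acss2-KO replicate 1 and WT replicate 2, and 1717 to 3997 with 1 library left out, with 1717 without Acss2-KO replicate 3. Of the other plasma membrane transporters, 3 passed with no minimum (Slc36a1, Slc1a5 and Slc7a7) and 2 without Acss2-KO replicate 1 and WT replicate 2 (Slc36a1 and Slc6a9), and 1 with any 1 library left out. Scaling moved the split of calls: 1252 higher and 2161 lower on CPM, where the median log2 fold change was -0.12, became 1753 and 1681 with median-of-ratios, 1784 and 1633 with trimmed-mean, 1656 and 1805 with upper-quartile and 1816 and 1641 with quantile scaling. Slc43a1, Slc3a2 and Slc1a2 passed and kept their direction in each of these scalings. The log2 fold change of Slc38a3 was 0.085, 0.094 and 0.047 with median-of-ratios, trimmed-mean and upper-quartile scaling, and -0.29 to 0.092 with 1 library left out. That of Slc38a2 was -0.47 to 0.083 with 1 library left out. The difference in the ratio of Slc7a5 to Slc3a2 was -0.16 with 1 CPM added to both values and -0.21 to 0.20 with 1 library left out. Slc6a6 was at 0.090, 0.099, 0.053 and 0.072 with median-of-ratios, trimmed-mean, upper-quartile and quantile scaling, 0.049 without Acss2-KO replicate 1 and WT replicate 2, and -0.21 to 0.047 with 1 library left out, and Slc6a9 was at -0.19 to 0.65 with 1 library left out. The comparison of Acss2-KO replicate 2 with WT replicate 1, chosen after seeing the data and without a test, gave -0.48 for Slc7a2. Also chosen after seeing the data were the fits without a minimum under each scaling and left-out library, in which adjusted p of Slc7a5 was 0.033 without Acss2-KO replicate 2, 0.047 without WT replicate 2, 0.045, 0.044 and 0.048 with median-of-ratios, trimmed-mean and upper-quartile scaling, and 0.13 to 0.22 with 1 of the other 4 libraries left out. The causes were not tested. Replicate numbers did not pair the samples (correlations of same-numbered deviations -0.10, -0.14 and 0.090). With the replicate block, 4 members and 3397 genes passed, no tested member's call changed, and Slc7a1, fitted without a minimum, had an adjusted p of 0.052. A count model was not run. Depth limits Slc7a1 most, with about 32 to 148 reads in a library.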

Other observations

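Several other transporter genes of the Slc7 and Slc1 families were at low levels. They were named after their values were seen. Slc7a6, a light chain that pairs with 4F2hc, was at 10.1, 1.09 and 3.86 CPM in Acss2-KO replicates 1 to 3 and was listed at 0 in all 3 WT libraries. Its values spread over 9.25-fold among the Acss2-KO libraries, and no fold against WT is given. Slc7a7, another light chain of 4F2hc, was at 1.16, 1.64 and 1.15 CPM in Acss2-KO liver, against 2.25, 3.86 and 2.75 CPM in WT liver. Slc1a5, the glutamine carrier ASCT2, was at 6.59, 5.90 and 5.35 CPM in Acss2-KO liver, against 2.95, 3.27 and 4.72 CPM in WT liver. In the limma fit without a minimum, where 35.5% of all genes passed, adjusted p was 0.12 for Slc7a6, 0.021 for Slc7a7 and 0.044 for Slc1a5.

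Slc7a8, the light chain LAT2, was at 6.59, 2.50 and 3.12 CPM in Acss2-KO liver, against 3.71, 12.4 and 3.05 CPM in WT liver. The highest library of each genotype was also the one with the highest sum of exocrine pancreas genes of that genotype, and the part of pancreatic RNA in these values was not tested. Slc1a4, the neutral amino acid carrier ASCT1, was highest in the same WT library, with 1.05, 2.03 and 1.74 CPM in Acss2-KO liver, against 2.53, 5.78 and 2.19 CPM in WT liver.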
